A study of Mus musculus with 18 samples.

Results

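Lungs of mice that received a linoleic acid-ceramide emollient on top of a dermatitis model were compared with lungs of untreated mice, across all genes. The members are the lung libraries whose labels name La-Cer or control, 3 libraries each, which makes 6 of the 18 samples of the series. La-Cer mice were female and WT and had 4 nmol calcipotriol (MC903, a vitamin D analogue), 50 µg ovalbumin and the emollient over 28 days. AD mice, also female and WT, had both agents without the emollient for as long, and their 3 lung libraries entered the fit for its estimate of the spread. Control mice were female, WT and untreated, and are labelled with the same 28 days. The labels give no strain, age or route, and they do not say that replicates came from separate animals, so p-values measure the spread between these samples only. The La-Cer and control groups differ by calcipotriol, ovalbumin and emollient together, so their effects cannot be told apart in this comparison.

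Calcipotriol on the skin of mice induces the alarmin Tslp and a type 2 inflammation that resembles atopic dermatitis, and ovalbumin serves as the allergen. Sensitisation through damaged skin can be followed by allergic airway inflammation, with eosinophils, the cytokines Il4, Il5 and Il13, and mucins such as Muc5ac in the airway epithelium. The lung parenchyma itself is mostly alveolar type 1 and type 2 epithelium, capillary endothelium and resident macrophages, while club and ciliated cells line the airways. In bulk RNA, fewer cells of a type and less RNA per cell cannot be told apart.

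The most prominent difference lay in secreted odorant-binding proteins and related genes, which were present in every La-Cer lung and at or near 0 counts in every control lung. Obp1a, Obp1b, Obp2a and Obp2b encode odorant-binding proteins of the lipocalin family, small barrel-shaped carriers of hydrophobic molecules. Bpifb9b and Bpifb9a belong to the BPI fold family of secreted lipid-binding proteins, and Mup4 is a major urinary protein, also a lipocalin. In mice these genes are known from nasal and vomeronasal glands, which secrete the proteins into the mucus over the olfactory epithelium.

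Windows of 100 bases before the annotated starts of 5 of these genes are shown because the genes shared a pattern in the data although they lie on 3 chromosomes. The sequences are from RefSeq, build GRCm38.p6, 5′ to 3′ on the strand of the gene, and capitals mark the motif TATAAA, the core of a TATA box. The windows are chrX:78091375-78091474, minus strand for Obp1a, chrX:78186708-78186807, plus strand for Obp1b, chr2:25736907-25737006, plus strand for Obp2b, chr2:154307144-154307243, plus strand for Bpifb9b and chr4:59960668-59960767, minus strand for Mup4.
Obp1a: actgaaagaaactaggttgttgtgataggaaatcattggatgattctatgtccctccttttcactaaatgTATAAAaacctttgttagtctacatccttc
Obp1b: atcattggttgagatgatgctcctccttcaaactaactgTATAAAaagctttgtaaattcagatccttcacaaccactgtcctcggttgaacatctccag
Obp2b: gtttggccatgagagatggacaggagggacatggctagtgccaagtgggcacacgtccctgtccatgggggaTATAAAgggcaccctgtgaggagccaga
Bpifb9b: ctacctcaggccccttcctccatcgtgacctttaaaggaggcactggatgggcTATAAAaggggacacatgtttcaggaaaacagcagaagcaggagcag
Mup4: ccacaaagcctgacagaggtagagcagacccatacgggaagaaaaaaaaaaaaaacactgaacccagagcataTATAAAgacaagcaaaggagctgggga
The motif began 30 bases before the start of Obp1a, 61 before Obp1b, 28 before Obp2b, 47 before Bpifb9b and 27 before Mup4, counted from the RefSeq start. The authors' coordinates place the starts of Obp1b, Bpifb9b and Mup4 inside these windows, and the motif of Mup4 then lies after the start, so its distance depends on the annotation. It was found on the gene strand in 12 of 24 genes of the group described next that matched a promoter entry, and in 3.8% of all 32851 promoter windows of the same length. On either strand the share over all windows was 5.56%, and the count in the group was again 12. A match describes the letters in the window and is no evidence of binding. Promoters of neighbouring copies were also alike, with an identical run of 291 bases of 300 between Obp1b and Gm14743, but of 13 between Obp1a and Obp1b. The run was 125 bases between Obp2a and Obp2b, and 53 between Bpifb9a and Bpifb9b. It was 144 between Gm14744 and 5430402E10Rik, which both lacked the motif. Both copies of the pairs with 291, 125 and 53 bases are among the 12 genes with the motif, so the 12 are not separate promoters.

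Raw counts show the pattern directly. Obp1a had 175, 286 and 182 counts in La-Cer lungs, against 0, 0 and 0 in control lungs. Bpifb9b had 160, 218 and 195 counts in La-Cer lungs, against 0 in each control lung. Gm14743, a predicted gene next to the Obp1 genes, had 181, 307 and 204 counts in La-Cer lungs, against 0 in each control lung. No La-Cer library came near a control library in these genes, and La-Cer replicate 2 was the highest in each. Obp1b had 116, 160 and 113 counts in La-Cer lungs and 0 in all control lungs. Obp2a had 78, 128 and 108 counts in La-Cer lungs, against 0, 0 and 2 in control lungs, and Obp2b had 57, 97 and 74, against 0, 1 and 0. These 6 genes were the ones called higher over 17272 tested genes, which is 0.0347%, and 0 genes were called lower, by edgeR's quasi-likelihood test with Benjamini-Hochberg adjustment at 0.05.

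**Figure D1:**
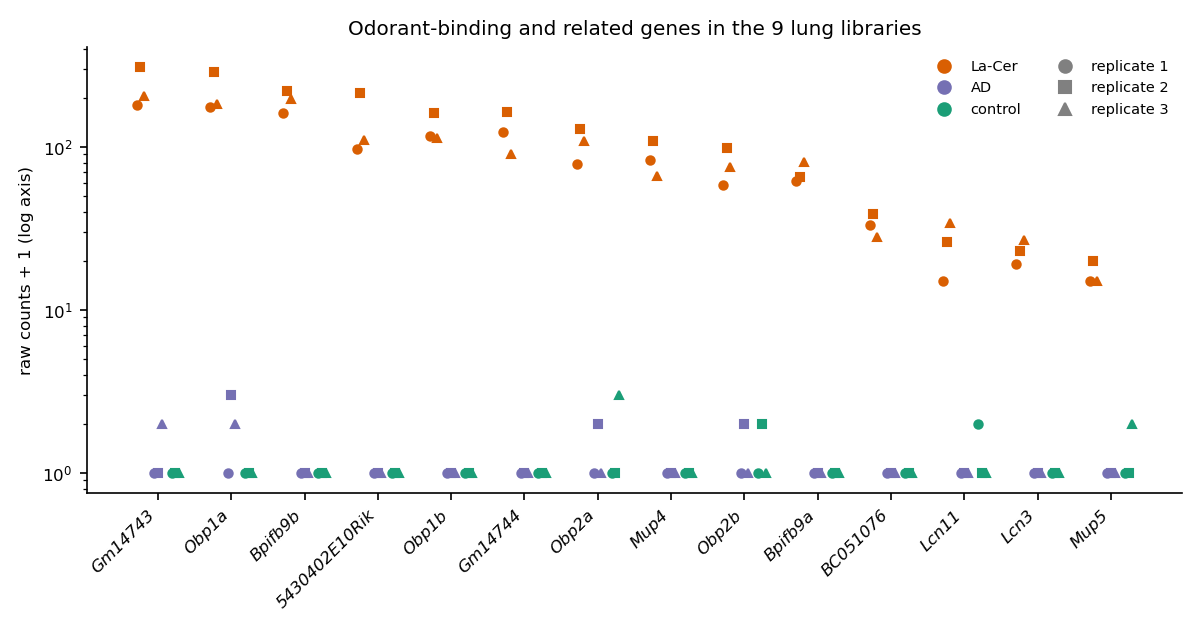
Raw counts plus 1 on a log axis for the 14 genes with the most La-Cer counts among those seen in every La-Cer lung library and at 3 counts or fewer over the 6 other lung libraries, with 1 point per library. La-Cer points lie between 14 and 307 counts, and AD and control points at 0 to 2.

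In TMM-scaled CPM, counts relative to the library total, Gm14743 averaged 12 ± 3.22 in La-Cer lungs and 0 in control lungs (SD, n = 3 each), with an edgeR adjusted p of 0.0149. Obp1a averaged 11.2 ± 2.98 CPM and had the same adjusted p. Bpifb9b averaged 9.99 ± 1.36 CPM with an edgeR adjusted p of 0.0206. Obp2b had an edgeR adjusted p of 0.0206 as well, Obp2a of 0.0243 and Obp1b of 0.0313. Because the control group held 0 counts, a fold change is only a lower bound, set against a floor of 3 counts over the group and scaled for library size. The bound was at least 204-fold higher in La-Cer lungs for Gm14743, at least 190-fold for Obp1a, at least 169-fold for Bpifb9b and at least 115-fold for Obp1b. For Obp2a the ratio of counts was 139 with an exact 95% interval of 38.1 to 1152, and for Obp2b it was 202 with an interval of 35.9 to 8004. These bounds and intervals cover counting error only.

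Further genes of the same kind followed below the threshold. Gm14744 had 123, 163 and 89 counts in La-Cer lungs and 0 in all control lungs, with an edgeR adjusted p of 0.0575. Mup4 had 82, 107 and 65 counts in La-Cer lungs and 0 in all control lungs, and Bpifb9a had 61, 64 and 80 and 0, each with an edgeR adjusted p of 0.066. The libraries of these genes did not overlap either. The unnamed gene 5430402E10Rik had 96, 213 and 109 counts in La-Cer lungs and 0 in all control lungs. BC051076 had 32, 38 and 27 counts in La-Cer lungs and 0 in all control lungs. The lipocalin Lcn3 had 18, 22 and 26 counts in La-Cer lungs and 0 in all control lungs, Lcn11 had 14, 25 and 33 against 1, 0 and 0, and Mup5 had 14, 19 and 14 against 0, 0 and 1. The lipocalin Lcn4 did not share the pattern, with 11, 2 and 4 counts in La-Cer lungs, against 7, 2 and 5 in control lungs.

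The list of odorant-binding and lipocalin genes held 16 genes, of which 12 were tested in the 9-library fit. It also held Omp and Cyp2g1, described below, which encode neither odorant-binding proteins nor lipocalins. Of these 12, 5 were called higher, 11 had an unadjusted p under 0.05 with a higher level in La-Cer lungs and 12 did not overlap between the groups. Over all 17272 tested genes, 1.79% were higher and 1.38% lower at an unadjusted p under 0.05. The 3 La-Cer libraries lay above all 3 control libraries in 5.64% of tested genes and below them in 5.69%. Genes at or near 0 in controls, and Omp and Cyp2g1 too, passed the filter on low counts through La-Cer alone. These counts of the list therefore describe it and support nothing further. A search over the whole table, made after values were seen, found 29 genes with at least 3 counts in every La-Cer lung library and at most 3 over the 6 other lung libraries. The same search found 17 genes for AD and 2 for control. Of the 29 genes, 25 are protein coding and 12 are in the list. Their summed counts were 1324, 1962 and 1431 in La-Cer lungs, 3, 5 and 3 in AD lungs, and 9, 2 and 6 in control lungs, so the largest share of a library was 0.0101% in La-Cer replicate 2.

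Low members of the 29 included Bpifb4 and Bpifb3 of the BPI fold family, with 13, 6 and 13 and 5, 12 and 3 counts in La-Cer lungs, against 1, 0 and 0 each in control lungs. The predicted gene Gm5938, among the Obp1 genes on chromosome X, had 8, 7 and 10 counts in La-Cer lungs and 0 in all control lungs. Others came from different families. Ambn and Amelx, which encode proteins of developing tooth enamel, had 9, 10 and 3 and 6, 22 and 9 counts in La-Cer lungs and 0 in every control lung. Gpx6, a glutathione peroxidase known from olfactory epithelium, had 8, 6 and 9 counts in La-Cer lungs and 0 in all control lungs. The epidermal genes Krt16, a stress keratin, and Flg, filaggrin of the skin barrier, had 11, 12 and 17 and 5, 3 and 3 counts in La-Cer lungs, against 2, 0 and 0 each in control lungs. With counts this low, the values separate presence from near absence and little more.

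A run of 6 genes of the group lie together between base 77864758 and base 78245921 of chromosome X in the authors' coordinates, namely Gm14744, 5430402E10Rik, Obp1a, Gm5938, Obp1b and Gm14743. Their summed counts were 699, 1136 and 707 in La-Cer lungs and 0, 0 and 0 in control lungs. Obp2a, Obp2b, Lcn3 and Lcn11 lie near each other on chromosome 2, and Bpifb9a and Bpifb9b lie elsewhere on it. Per exonic length, Gm14743 was the highest at 12.5, 20.9 and 14.3 FPKM in La-Cer lungs, and Obp1a stood at 12.1, 19.5 and 12.8 FPKM. Bpifb9b, with a longer transcript, stood at 4.04, 5.45 and 5.01 FPKM. Gm14743 and Obp1b, Gm14744 and 5430402E10Rik, Obp2a and Obp2b, and Bpifb9a and Bpifb9b are close copies, so reads may have been shared within each pair and the level of a single copy is uncertain. Whether BC051076 shares reads with a gene on the opposite strand is uncertain too, since strandedness is not given.

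AD lungs were near 0 in these genes too, as the search for the 29 genes required. Obp1a had 0, 2 and 1 counts and Bpifb9b 0, 0 and 0 in AD lungs, and 14 of the 29 genes were called higher in La-Cer against AD, where 0.845% of tested genes were called higher. The search required at most 3 counts over the AD and control libraries, so low AD counts and these calls largely follow from that choice. The comparison also shares its La-Cer libraries with the one against control, and it is no independent support. In skin of the same series, the 6 genes of the chromosome X run summed to 0, 12 and 0 counts in La-Cer, 3, 0 and 0 in AD, and 1, 38 and 449 in control libraries. Bpifb9a, Bpifb9b, Obp2a, Obp2b and Lcn3 together had 374, 529 and 483 counts in La-Cer lungs, 0, 1 and 2 in control lungs, and at most 8 in any skin library. The untreated skin sample with 449 counts of the chromosome X genes held 0 counts of these chromosome 2 genes. It was not free of the other genes of the group, with 40 counts of Mup4 and 12 of Mup5. Lcn11, on chromosome 2 but not in that sum, had 10 counts there and 9 in AD skin replicate 3.

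Markers of the nose other than the secreted proteins were also examined, and 2 that are known from olfactory neurons and mucosa, Omp and Cyp2g1, stood at low counts in lung. Both are members of the odorant-binding and lipocalin list above, so they are no separate set. Omp, the olfactory marker protein of mature olfactory neurons, had 12, 15 and 17 counts in La-Cer lungs, 1, 3 and 7 in AD lungs, and 0, 9 and 9 in control lungs. Cyp2g1, a cytochrome P450 of the olfactory mucosa, had 18, 16 and 12 counts in La-Cer lungs and 7, 0 and 3 in control lungs. Every skin library of the series had more Cyp2g1 counts than any lung. They were 962, 397 and 417 in La-Cer skin, 487, 3874 and 444 in AD skin, and 240, 87 and 666 in control skin. Omp had 26, 33 and 84 counts in La-Cer skin, 18, 0 and 21 in AD skin, and 58, 60 and 7 in control skin. Of the 9 markers of nasal and olfactory epithelium, 7 were tested and 6 did not overlap, all higher in La-Cer lungs, where 5.64% of all tested genes lay above the controls. Obp1a, Obp2b, Bpifb9a, Omp and Cyp2g1 are among these 6 and passed the filter through La-Cer alone. The count of 6 therefore describes the markers and supports nothing further. The 9 markers summed to 493, 259 and 480 CPM in La-Cer lungs and 557, 185 and 335 CPM in control lungs, and those sums overlapped. Nearly all of the sum was Cyp2a5, a cytochrome P450 known from olfactory mucosa and also from liver and lung, at 473, 232 and 458 CPM in La-Cer lungs and 555, 183 and 333 CPM in control lungs. The part of nasal tissue in the result was not tested.

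The 6 calls depended on the set of libraries. With the replicate number as a block the smallest edgeR adjusted p was 0.141 and 0 genes were called, and with only the La-Cer and control libraries it was 0.0606 and 0 were called. Leaving out any single La-Cer library gave 0 calls. Each La-Cer library had at least 57 counts of each of the 6 genes and each control library at most 2.

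Control replicate 1 stood apart from the other control lungs. Library totals were 19139144, 19338972 and 18821411 counts in La-Cer, 17107391, 15904723 and 17052859 in AD, and 18532389, 17492702 and 16614340 in control. Log2 CPM of control replicate 1 correlated at 0.914 and 0.905 with control replicates 2 and 3, which correlated at 0.983 with each other, while La-Cer libraries correlated at 0.979 to 0.991. On the first principal component, with 45.2% of the variance, La-Cer libraries scored 43.1, 25.3 and 30.5, and control libraries 97.3, -16.5 and -17.9. The length index, the log2 level of the longest of 5 classes of genes by exonic size minus that of the shortest class, was -0.44, -0.13 and -0.32 in La-Cer, 0.70, 0.41 and 0.33 in AD, and -1.17, 0.25 and 0.23 in control. La-Cer averaged -0.30 ± 0.16 and control -0.23 ± 0.81 (SD, n = 3 each), a difference of -0.06 with an exact two-sided permutation p of 1, where 3 against 3 cannot go below 0.1. Without control replicate 1 the difference was -0.53, because control replicates 2 and 3 averaged 0.24. The tissue label fitted its markers in all 6 libraries, with the surfactant gene Sftpc at 25069, 23574 and 23253 CPM in La-Cer and 38652, 16319 and 13953 CPM in control. La-Cer replicates 1 and 3 were the closest pair, yet differed beyond sampling noise, with a chi-square per gene of 5.91.

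**Figure D2:**
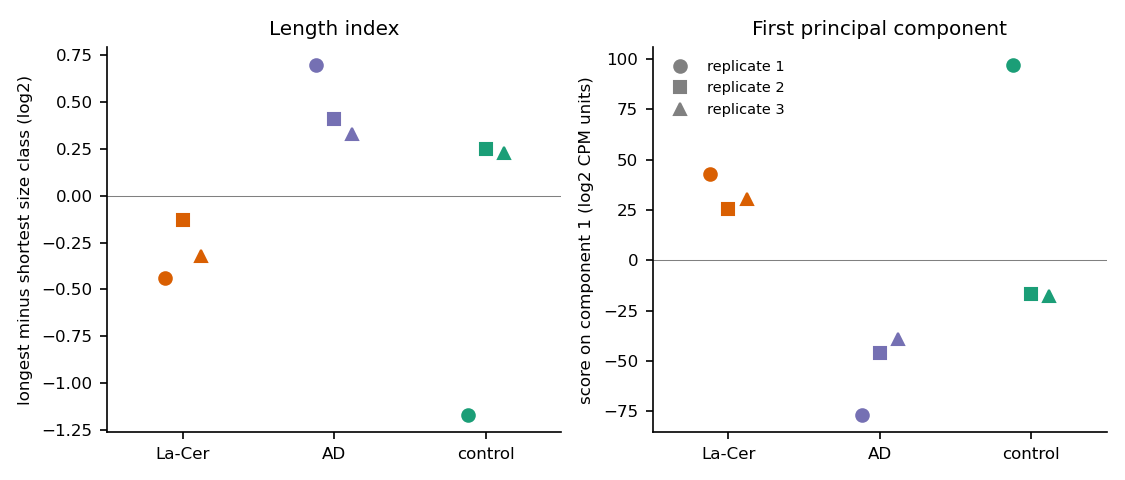
Length index in log2 units on the left and score on the first principal component on the right, with 1 point per lung library and groups on the horizontal axis. Control replicate 1, at -1.17 and 97.3, lies beyond the La-Cer libraries, and the other control libraries lie on the far side of 0.

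Without control replicate 1, further genes passed the test, among them the ribosomal protein genes Rpl17 and Rps7 and the mitochondrial genes Mrpl57 and Fdx1, which rose, and Foxp1, Adgrl1, Unc5b and Rgs3, which fell in La-Cer lungs. Of 17656 tested genes, 16 were called higher, or 0.0906%, and 5 lower, or 0.0283%, again by edgeR with Benjamini-Hochberg adjustment. At an unadjusted p under 0.05, 11.7% of genes were higher and 10.5% lower. The estimated biological coefficient of variation was 23.6% over these 8 libraries and 32.2% over 9. The 6 genes called over 9 libraries were called here too, with Gm14744, Mup4 and Bpifb9a, and the other 12 calls were of genes expressed in every library.

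Rpl17, a protein of the large ribosomal subunit, stood at 40.4, 28 and 40.8 CPM in La-Cer lungs, against 11.5 and 9.72 CPM in control replicates 2 and 3, and it rose by 1.79 ± 0.20 on the log2 scale (SE, edgeR adjusted p = 0.0389). Control replicate 1 had 48.9 CPM, above all La-Cer lungs. Rps7, of the small subunit, had 63.4, 56.4 and 64.7 CPM in La-Cer lungs, against 33.5 and 26.5 CPM, and Mrpl57, a mitochondrial ribosomal protein, had 51.7, 44.7 and 48.4 CPM, against 23.6 and 25.9 CPM. Fdx1, the mitochondrial ferredoxin that passes electrons to cytochrome P450 enzymes, had 99.4, 88.3 and 85.2 CPM in La-Cer lungs, against 49.6 and 46.5 CPM in control replicates 2 and 3. In each of these genes control replicate 1 exceeded every La-Cer library, at 108 CPM for Rps7, 80.2 for Mrpl57 and 165 for Fdx1. Crb3, an apical polarity protein of epithelia, had 49.9, 51.7 and 47 CPM in La-Cer lungs, against 65.9, 22.9 and 26 CPM in the 3 control lungs, and rose by 1.03 ± 0.12 (SE, edgeR adjusted p = 0.0389). The remaining rises were the ribosomal protein pseudogene Rpl31-ps8 and the predicted gene Gm10076, both short and with uncertain read assignment.

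Foxp1, a forkhead transcription factor of lung epithelial and lymphoid development, stood at 81, 94.4 and 79 CPM in La-Cer lungs, against 56.6 CPM in control replicate 1 and 220 and 217 CPM in control replicates 2 and 3, and fell by 1.35 on the log2 scale (SE 0.18, edgeR adjusted p = 0.0479). Adgrl1, the adhesion receptor latrophilin, had 41.3, 52.9 and 58.6 CPM in La-Cer lungs, against 16.3, 115 and 139 CPM in control lungs, and Unc5b, a netrin receptor of endothelium, had 34.3, 41.3 and 39.6 CPM, against 15.2, 72.3 and 77.5 CPM. Rgs3, a regulator of G protein signalling, had 57.6, 65.7 and 55.2 CPM in La-Cer lungs and 43.4, 105 and 113 CPM in control lungs. Also called was the gene 2510009E07Rik. Control replicate 1 lay below every La-Cer library in all 5, so in all 12 genes outside the odorant-binding group this library lay within or beyond the La-Cer side. Zfhx3, a large zinc finger factor, was the next fall by p and was not called, at 15.8, 22.9 and 20.1 CPM in La-Cer lungs and 9.63, 39.5 and 48.3 CPM in control lungs (edgeR adjusted p = 0.0522).

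**Figure D3:**
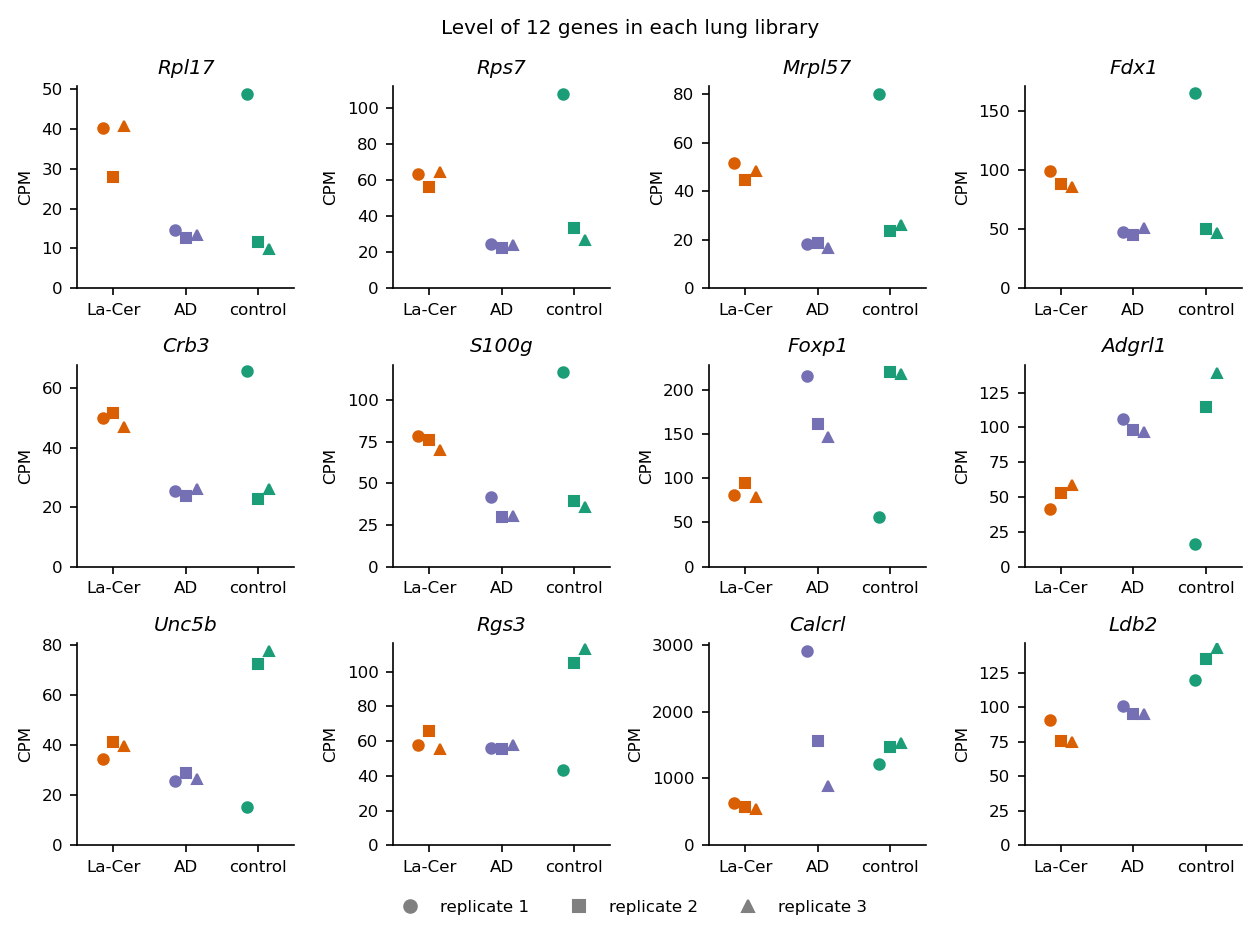
TMM-scaled CPM of 12 genes in each lung library, with La-Cer, AD and control on the horizontal axis and a symbol for each replicate number. In Rpl17, Rps7, Mrpl57, Fdx1, Crb3, S100g, Foxp1, Adgrl1, Unc5b and Rgs3 control replicate 1 lies on the La-Cer side, whereas in Calcrl and Ldb2 all 3 control libraries lie above La-Cer.

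Genes called in opposite directions differed in size. The median exonic size of the 16 genes called higher was 861 bases and of the 5 called lower 8587 bases, against 3868 bases over all tested genes. Of the 16, 9 belong to the odorant-binding group, most of them short, so the 861 bases partly reflect that group. The other rises ranged from 378 bases for Rpl31-ps8 to 3104 bases for Fdx1. At an unadjusted p under 0.05 the medians were 2325 bases for higher and 6596 bases for lower genes. With a trend over exonic size and GC content removed, 0 genes were called and the smallest edgeR adjusted p was 0.0547, while log2 fold changes kept their sign in all 21 genes, at 10.79 against 10.65 for Obp1a, -1.13 against -1.35 for Foxp1 and 1.41 against 1.79 for Rpl17. With the replicate number as a block, 0 were called as well and the smallest adjusted p was 0.136. Of 3876 genes with an unadjusted p under 0.05 here, 648 had the opposite sign over 9 libraries. The part of transcript length in these differences was not tested.

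**Figure D4:**
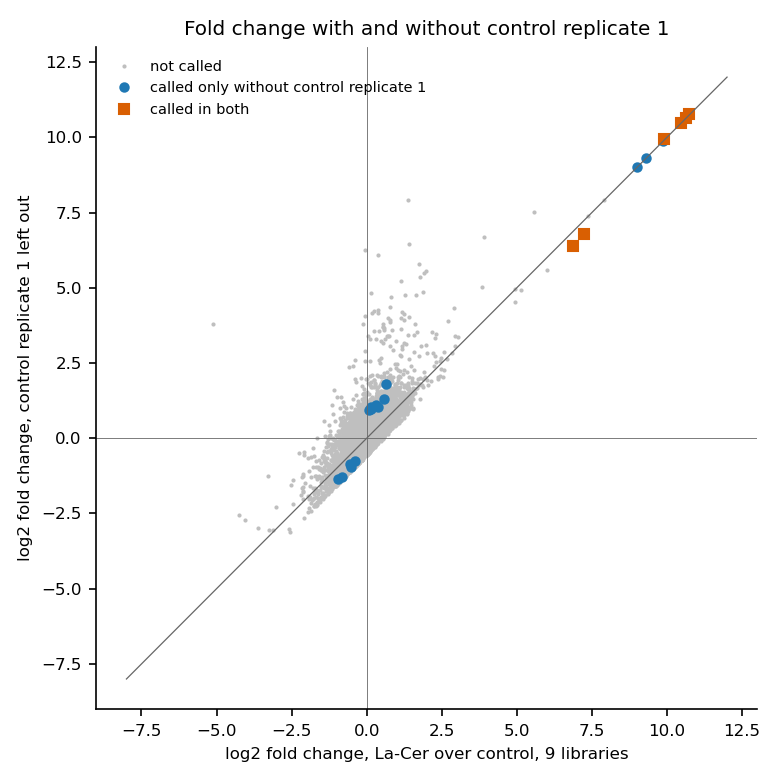
Log2 fold change of La-Cer over control over 9 libraries on the horizontal axis and with control replicate 1 left out on the vertical axis, with 1 point per gene tested in both and the diagonal drawn. The odorant-binding genes lie on or near the diagonal at the upper right, and the other 12 called genes lie nearer to 0 over 9 libraries.

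The gene lists were split in the same manner. Of 80 tested cytosolic ribosomal proteins, 2 were called higher without control replicate 1, beside 0.0906% of all tested genes. At an unadjusted p under 0.05, 57 were higher and 0 lower, beside 11.7% and 10.5% of all tested genes. With the size and GC trend removed, 40 were higher and 0 lower at that p. The median log2 fold change of the 80 was 0.62 without control replicate 1 and 0.06 with it. Medians over all tested genes were 0.02 and -0.05. The list summed to 27366, 21653 and 25554 CPM in La-Cer lungs, against 42424, 15711 and 15781 CPM in control lungs. Nuclear-encoded subunits of the respiratory chain differed in sign, since 83 tested genes had a median of 0.51 without control replicate 1 and -0.23 with it. Atp5a1 and Atp5b, subunits of the ATP synthase, had 936, 830 and 877 and 875, 794 and 809 CPM in La-Cer lungs, against 1155, 780 and 694 and 1591, 846 and 680 CPM in control lungs. The sign of the respiratory chain list therefore rests on 1 library.

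Long nuclear transcripts and chromatin genes stood on the other side. Of 20 genes of histone methyltransferase complexes, which write methyl marks on histone H3, 12 were lower and 1 higher at an unadjusted p under 0.05 without control replicate 1, with 0 called and a median of -0.52, where 10.5% of all tested genes were lower. Over 9 libraries 0 were lower at that p and the median was -0.21. Kmt2d had 71.3, 102 and 103 CPM in La-Cer lungs, against 10.1, 159 and 197 CPM in control lungs. Malat1, a nuclear long noncoding RNA, had 134, 218 and 252 CPM in La-Cer lungs, against 41.8, 446 and 578 CPM in control lungs, and the 9 nuclear-retained RNAs had a median of -0.63 without control replicate 1 and -0.32 with it. In these genes too, control replicate 1 was the lowest library of all. With the size and GC trend removed, the median of the histone methyltransferase list was -0.31 and that of the ribosomal list 0.37. Mitochondrially encoded genes summed to 27455, 15303 and 27380 CPM in La-Cer lungs and 13001, 28932 and 30786 CPM in control lungs, so these groups overlapped.

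Endothelial genes had a negative median in La-Cer lungs with either set of controls, and none passed the test over 9 or 8 libraries. Of 19 tested markers, 18 had a negative log2 fold change over 9 libraries, 3 were lower at an unadjusted p under 0.05 and 4 lay below all 3 controls, beside 1.38% and 5.69% of all tested genes. The median was -0.50 over 9 libraries and -0.62 without control replicate 1. AD lungs, set against the same controls, had medians of -0.51 and -0.69 for these genes. Calcrl, the receptor for adrenomedullin and CGRP, had 625, 574 and 537 CPM in La-Cer lungs, against 1223, 1467 and 1530 CPM in control lungs, with a log2 fold change of -1.28 ± 0.38 (SE, edgeR adjusted p = 0.999). Its groups did not overlap, although AD lungs ranged widely at 2907, 1559 and 893 CPM. Ramp2, its partner in the adrenomedullin receptor and named here after its values were seen, had 536, 551 and 530 CPM in La-Cer lungs, against 784, 843 and 948 CPM in control lungs. Car4, a carbonic anhydrase of capillary endothelium, had 298, 297 and 284 CPM in La-Cer lungs, against 501, 367 and 393 CPM in control lungs. Pecam1, the adhesion molecule CD31, overlapped at 782, 851 and 766 CPM in La-Cer lungs and 773, 1196 and 1277 CPM in control lungs. Cldn5, a tight junction protein of the same cells, overlapped as well, at 945, 798 and 933 CPM in La-Cer lungs and 1166, 831 and 951 CPM in control lungs.

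Ldb2, Cd300lg, S1pr1, Lpl and Cd36 did not overlap between the 3 La-Cer and 3 control lungs and are 5 of the 982 tested genes, or 5.69%, that lay below all controls. Ldb2, Cd300lg and Lpl were chosen after their values were seen. Ldb2, a cofactor of LIM-domain transcription factors expressed in endothelium, had 91.1, 75.2 and 74.5 CPM in La-Cer lungs, against 120, 135 and 143 CPM in control lungs. Cd300lg, a receptor of capillary endothelium, had 5.31, 3.78 and 5.46 CPM in La-Cer lungs, against 12.9, 13.3 and 10.9 CPM in control lungs, with a log2 fold change of -1.35 ± 0.28 (SE, edgeR adjusted p = 0.76). S1pr1, the endothelial receptor for sphingosine 1-phosphate, had 248, 259 and 227 CPM in La-Cer lungs, against 432, 368 and 459 CPM in control lungs. Lpl and Cd36, which release and take up fatty acids at the capillary wall, had 133, 120 and 136 and 852, 956 and 760 CPM in La-Cer lungs, against 267, 224 and 222 and 1839, 1286 and 1310 CPM in control lungs. None of these 5 genes passed the edgeR test over 9 libraries at an adjusted p of 0.05.

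Ciliated cell genes had positive log2 fold changes without a call over 9 or 8 libraries. All 24 tested ciliated cell markers had a positive log2 fold change over 9 libraries, 8 lay above all 3 control lungs, and 2 were higher at an unadjusted p under 0.05, beside 5.64% and 1.79% of all tested genes. The median was 0.60 over 9 libraries and 0.79 without control replicate 1. Tppp3, a tubulin-binding protein of cilia, had 846, 784 and 828 CPM in La-Cer lungs, against 1009, 442 and 498 CPM in control lungs, and Tubb4b, a tubulin of the ciliary axoneme, had 559, 537 and 549 CPM, against 655, 409 and 446 CPM. Dnah5 and Hydin, both named after their values were seen, did not overlap. Dnah5, a dynein arm heavy chain, had 76.3, 52.1 and 74.1 CPM in La-Cer lungs, against 33.2, 25.2 and 51.1 CPM in control lungs, and Hydin, of the central pair, had 21.4, 18.2 and 25.7 CPM, against 7.24, 6.79 and 14 CPM. The club cell secretoglobin Scgb1a1 overlapped at 73027, 47711 and 66655 CPM in La-Cer lungs and 59656, 35969 and 52446 CPM in control lungs. The cartilage marker Chad stood at 36, 26 and 37.2 CPM in La-Cer lungs and 13.1, 19.9 and 35.9 CPM in control lungs. Of 4 tested cartilage markers, 2 had a positive and 2 a negative log2 fold change over 9 libraries, with Col11a2 at -0.07. The part of airway content in these values was not tested.

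Genes of type 2 inflammation held no call over 9 or 8 libraries. Of 19 tested genes of the list, 0 were called in either fit and the median was 0.09 over 9 libraries. Il13 had 0 counts in all La-Cer and control lungs, which allows up to 3 counts a library, and Il4 had 2.5, 1.89 and 2.7 CPM in La-Cer lungs and 1.72, 1.85 and 2.6 CPM in control lungs. Il33, the epithelial and endothelial alarmin, had 60.7, 72.2 and 54.8 CPM in La-Cer lungs and 77.3, 63.4 and 57.6 CPM in control lungs. The eotaxin Ccl11, the chitinase-like protein Chil3 and the resistin-like protein Retnla overlapped too, with Chil3 at 62.2, 106 and 52.4 CPM in La-Cer lungs and 85, 60.6 and 58.9 CPM in control lungs. Chil3 in AD lungs stood at 398, 613 and 117 CPM. Clca1, a goblet cell secreted protein induced by Il13, did not overlap at 7.59, 3.48 and 6.15 CPM in La-Cer lungs, against 1.78, 2.08 and 1.27 CPM in control lungs, with a log2 fold change of 1.74 ± 0.93 (SE, edgeR adjusted p = 0.999). Postn, of the type 2 list, was lower without overlap, at 243, 291 and 235 CPM in La-Cer lungs, against 360, 413 and 441 CPM. Its log2 fold change was -0.66 ± 0.25 (SE, edgeR adjusted p = 0.999). Of the 19 tested genes, 1 lay above all 3 control lungs and 1, Postn, below, beside 5.64% and 5.69% of all tested genes. The mucins overlapped, with Muc5b at 61.2, 38.7 and 65.3 CPM in La-Cer lungs and 26.6, 39 and 76.8 CPM in control lungs, and Muc5ac at 2.44 CPM or less in all 6 lungs.

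Genes of the vitamin D response held no call over 9 or 8 libraries. Of 7 tested over 9 libraries, 6 had a positive log2 fold change, with a median of 0.32. Without control replicate 1, 7 of 8 were positive, with a median of 0.86. At an unadjusted edgeR p under 0.05, 3 of these 8 were higher and 1 lower, beside 11.7% and 10.5% of all tested genes. Cyp24a1, the vitamin D-degrading hydroxylase and a sensitive target of the receptor, had 1, 1 and 0 counts in La-Cer lungs and 0 in all control lungs and was not tested. Vdr, the receptor, had 5.79, 4.55 and 5.83 CPM in La-Cer lungs and 1.96, 4.1 and 4.11 CPM in control lungs, without overlap and with a log2 fold change of 0.67 (edgeR adjusted p = 0.999). S100g, the calcium-binding protein calbindin D9k, had 78.4, 76.2 and 70.1 CPM in La-Cer lungs, against 117, 39.2 and 35.6 CPM in control lungs, with an edgeR adjusted p of 0.0584 without control replicate 1.

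Lists of lipid genes held no call over these libraries. The 30 tested genes of ceramide and sphingolipid metabolism had a median of -0.06 over 9 libraries and -0.02 without control replicate 1. Acer2, an alkaline ceramidase, had 269, 273 and 293 CPM in La-Cer lungs, against 247, 421 and 487 CPM in control lungs. The 27 tested genes of the list on oxygenation of linoleic and arachidonic acid had a median of 0.17, and not every member oxygenates these acids. Cyp2f2, the club cell cytochrome P450 placed in that list, had 5800, 3832 and 5425 CPM in La-Cer lungs and 2557, 2509 and 4755 CPM in control lungs. PPAR targets and fatty acid oxidation genes had a median of -0.51 over 9 libraries and -0.22 without control replicate 1. Fabp4, a fatty acid carrier of fat and capillaries, was spread over 295, 78 and 247 CPM in La-Cer lungs and 2384, 439 and 142 CPM in control lungs.

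Immune lists also held no call over 9 or 8 libraries. B cell markers had a median of 0.34, with 11 of 11 positive and 3 above all controls, beside 5.64% of all tested genes, among them Cd79a of the B cell receptor at 26.5, 35.4 and 26.7 CPM in La-Cer lungs, against 19.6, 20.1 and 23.6 CPM in control lungs. Ighm, the mu heavy chain, had 192, 117 and 179 CPM in La-Cer lungs and 133, 75 and 68.6 CPM in control lungs. Interferon response genes had a median of -0.28, with 27 of 29 negative and 7 below all controls, beside 5.69% of all tested genes, although AD replicate 3 dominated the spread of that list with a sum of 3686 CPM against 703 to 1096 CPM in the other libraries. Neutrophil and macrophage lists had medians of 0.29 and -0.07. Lyz2, the myeloid and type 2 cell lysozyme, had 4921, 5619 and 4411 CPM in La-Cer lungs and 10535, 3415 and 3015 CPM in control lungs, with control replicate 1 as the highest library.

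Markers of tissue next to the lung varied between samples. Of 12 skeletal muscle markers, 8 were higher at an unadjusted p under 0.05 over 9 libraries, beside 1.79% of all tested genes. Above all controls lay 2 of the 12, beside 5.64% of all tested genes, and 0 were called. The median log2 fold change was 2.0, against 2.73 without control replicate 1. The list summed to 487, 109 and 547 CPM in La-Cer lungs, 15.5, 39.9 and 77.7 CPM in AD lungs, and 221, 97.7 and 149 CPM in control lungs. Acta1, the actin of skeletal muscle, had 110, 6.59 and 131 CPM in La-Cer lungs, against 26.7, 12.9 and 12 CPM in control lungs, so La-Cer replicates 1 and 3 carried the difference. Adipocyte markers had a median of -1.67 over 9 libraries and -0.66 without control replicate 1, and summed to 728, 302 and 661 CPM in La-Cer lungs and 4072, 1120 and 431 CPM in control lungs. Red blood cell genes summed to 1415, 780 and 1301 CPM in La-Cer lungs and 4876, 259 and 1137 CPM in control lungs, again highest in control replicate 1. Cardiac muscle genes overlapped, with 3837, 2038 and 3670 CPM in La-Cer lungs and 3328, 2011 and 3187 CPM in control lungs. The part of attached tissue in the values above was not tested.

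**Figure D5:**
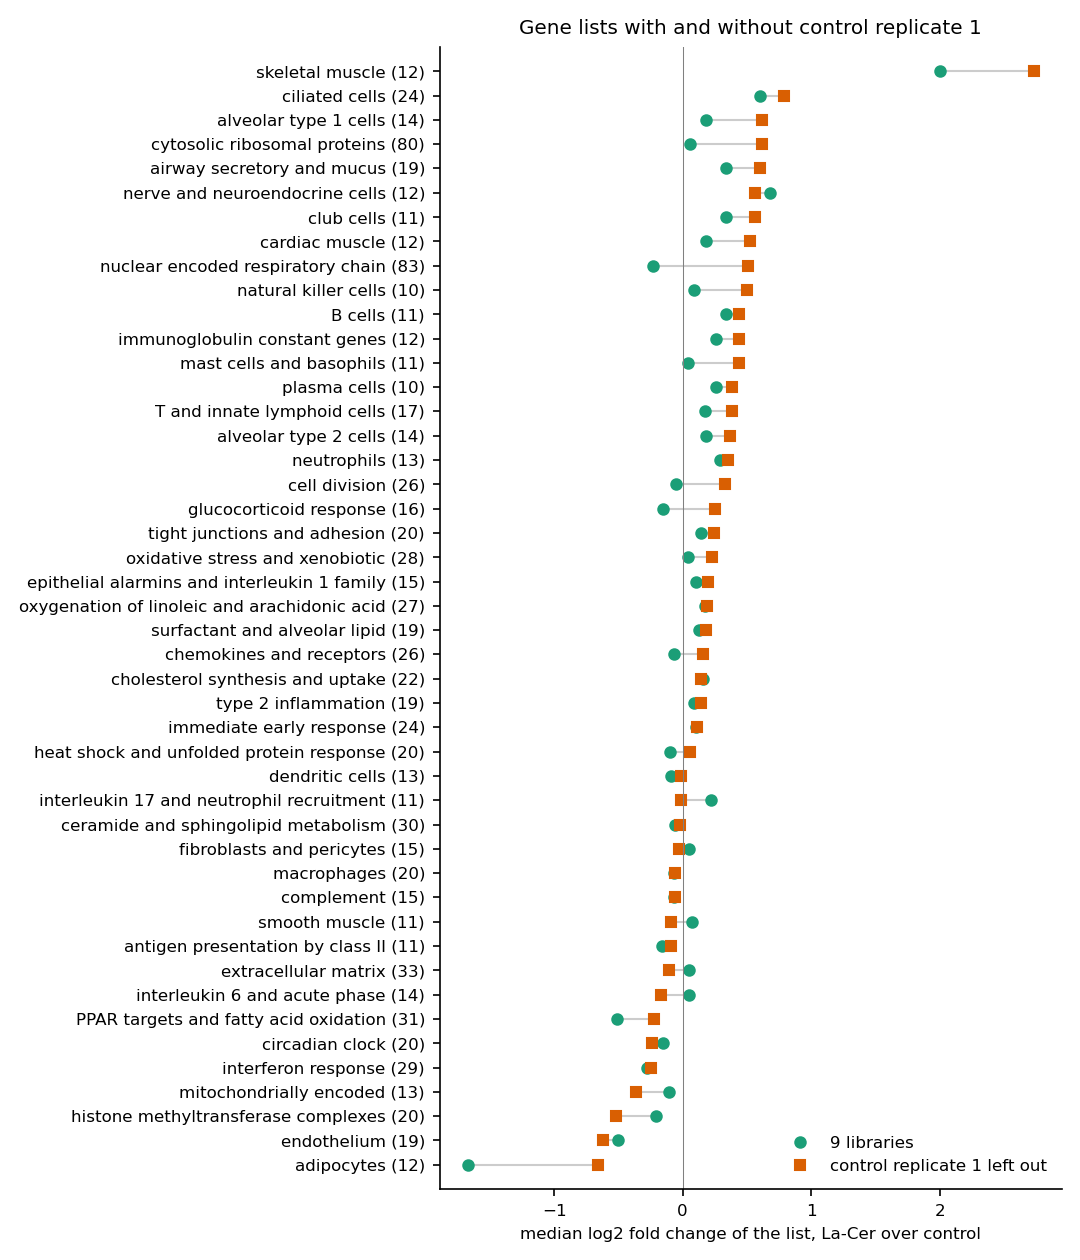
Median log2 fold change of La-Cer over control for each list with at least 10 tested genes, whose number is in brackets, over 9 libraries as circles and without control replicate 1 as squares; the odorant-binding list is left out because its folds are bounds. Ribosomal and respiratory chain lists stand at 0.62 and 0.51 without control replicate 1 and at 0.06 and -0.23 with it, and endothelium at -0.62 and -0.50.

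Clock genes held no call over 9 or 8 libraries either. Of 20, 3 were lower at an unadjusted p under 0.05 over 9 libraries, beside 1.38% of all tested genes. Below all controls lay 3 of the 20, beside 5.69% of all tested genes, with 0 called and a median of -0.15. Hlf, a PAR-domain transcription factor of clock output, had 26.2, 27.4 and 22.3 CPM in La-Cer lungs, against 32.2, 42.2 and 57.9 CPM in control lungs, and Ciart, a repressor of the clock, had 10.5, 12.2 and 14.3 CPM, against 19, 18.4 and 34.1 CPM. Both were named after their values were seen. Nr1d1, a strongly rhythmic nuclear receptor, overlapped at 248, 293 and 268 CPM in La-Cer lungs and 90.4, 276 and 222 CPM in control lungs. The time of day at which tissue was taken is not given in the sources used here.

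The number of calls without control replicate 1 differed strongly with the libraries in the fit and with the tool. When the AD libraries were left out too, edgeR called 1460 of 17164 genes higher, or 8.51%, and 1635 lower, or 9.53%, among them all 21 genes called over 8 libraries with the same sign. In that fit 51 of 80 ribosomal genes and 39 of 83 respiratory chain genes were called higher, and 14 of 19 endothelial and 12 of 20 histone methyltransferase genes were called lower. It also called 4 of 11 B cell and 7 of 24 ciliated cell genes higher, and 6 of 30 interferon response, 5 of 20 clock and 4 of 30 ceramide and sphingolipid genes lower. DESeq2 called 1523 genes over the same 8 libraries in which edgeR called 21. AD libraries correlated at 0.951 to 0.967 with each other, below the La-Cer libraries and control replicates 2 and 3 given above. The part of the AD libraries in the number of calls was not tested.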

How the data were processed

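Gene expression was measured by RNA sequencing in skin and lung, and the 9 lung libraries were analysed. Per the labels' protocols, each library took 1.5 µg of total RNA and a SMARTER kit for mRNA. Tools named in the submitters' processing notes are cutadapt 1.9.1 and bcl2fastq 2.17.1.14, with the build GRCm38. How reads were aligned and counted, and whether by strand, is not given in the sources used here. The authors deposited raw counts for 55401 genes, per the file headers. Their deposited FPKM equal counts over exonic size and column total to within 0.005, so the FPKM were used only to compare genes, and the exonic gene size is the authors' deposited value. Skin counts, also deposited by the authors, were read for the genes of the odorant-binding list and group alone.

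The test was that of edgeR 4.0.16, run in R 4.3.3 on the lung counts with TMM scaling, filterByExpr, the robust quasi-likelihood fit and Benjamini-Hochberg adjustment over all tested genes, over 9 libraries and over 8 without control replicate 1. A gene is called at an adjusted p under 0.05, and the script was tested on simulated data. Totals of 15904723 to 19338972 counts limit precision for low genes. Alternatives used RLE factors, DESeq2 1.42.0, no filter, only La-Cer and control libraries, a replicate block, removal of a trend over exonic size and GC content, limma 3.58.1 voom with library weights, a fold threshold of 1.5, and leaving out each library. Permutation tests used scipy 1.17.1 in Python 3.11.15.

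The labels give La-Cer and control libraries the same replicate numbers but no shared animal. Deviations of same-numbered La-Cer and control libraries from their group means correlated at 0.31, 0.13 and 0.19, so the numbers were treated as pairs where blocked values are given.

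Named genes were the 10 largest called rises and falls without overlap and with a mean of at least 1 CPM, filled up by p, up to 3 called members or 2 members by level of each of 57 lists, and a set of genes always reported. The members and lists were chosen with earlier results of these data known. Genes outside the rule were picked with their values known, as the text says of single genes, and this holds too for Lcn4, Omp, Cyp2g1, Cyp2a5 and the uncalled genes described with the odorant-binding group.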

Additional observations from a re-analysis of the deposited data

How the results depend on the processing

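The count of genes called over 9 libraries was 6. It was 6 with RLE factors, with the size and GC trend removed and with a fold threshold of 1.5, 22 with DESeq2, 11 without the filter and 5229 with voom library weights. It was 0 with only La-Cer and control libraries, 0 with the replicate block, 0 with the replicate block and the trend removed, and 0 with only La-Cer and control libraries and the replicate block, a setting chosen after seeing the data. Leaving out 1 library gave 0 to 21 calls, with 0 without any La-Cer library, 3 without AD replicate 2, 21 without control replicate 1 and 2 without control replicate 2 or 3.

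Without control replicate 1 the count was 21. It was 9 with RLE factors, 1523 with DESeq2, 449 without the filter, 3095 with only La-Cer and control libraries, 4708 with voom library weights and 3 with the fold threshold, and 0 with the replicate block, with the trend removed or with both. With only La-Cer and control libraries and the trend removed, chosen after seeing the data, it was 2131. Leaving out a further La-Cer or control library gave 0 to 7 calls, and the AD libraries were not left out singly here. The cause of these differences was not tested.

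The length index difference of -0.06 was -0.08 over genes with at least 10 CPM and ranged from -0.53 to 0.18 with 1 library left out. It was 0.01 without La-Cer replicate 1, 0.18 without control replicate 2 and 0.16 without control replicate 3. Depth limits genes of a few counts, for which only presence could be read.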
